A study of Homo sapiens with 4 samples.

Results

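The mitochondrial carrier family SLC25 was examined in m6A meRIP-seq data of OE-19 cells, an established cell line of adenocarcinoma of the esophagogastric junction. Members were all GENCODE protein-coding genes of hg38 whose symbol is SLC25A followed by digits, which gave 48 of 20028 protein-coding genes. meRIP-seq uses an antibody to enrich RNA fragments that contain N6-methyladenosine (m6A), and a peak is a region where the enriched fragments gather. There were 2 samples pulled down with an anti-m6A antibody (m6A IP, replicates 1 and 2) and 2 input samples without antibody, all from untreated OE-19 cells grown in RPMI1640 medium with serum. Each m6A IP replicate had its own peak list, whereas the input samples were not analysed here. All values therefore come from 1 group of 2 libraries of 1 cell line, and no conditions could be compared. The lists gave no read numbers, so the depth of the libraries is unknown.

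SLC25 proteins form the main group of transporters in the inner mitochondrial membrane. They share a fold of repeated membrane-spanning modules and exchange nucleotides, phosphate, carboxylates, amino acids, cofactors and metal ions between the cytosol and the matrix. The proteins are encoded in the nucleus, translated in the cytosol and imported into mitochondria. In mRNA, m6A is placed mainly at adenines of a motif with the core GGAC, often near stop codons and in long exons, and reader proteins bound there act on the stability or translation of the transcript.

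A gene was counted as carrying a peak when a peak summit, the position of highest signal in the peak, lay in one of its exons. Replicate 1 held 24607 peaks, of which 18472 had the summit in an exon of a protein-coding gene and 48 in an exon of a SLC25A gene. Replicate 2 held 19318 peaks, of which 11995 lay in protein-coding exons and 27 in exons of SLC25A genes. Of 8 epithelial genes examined, CDH1 had an exonic peak in both lists and VIL1 in replicate 1. The other 6, EPCAM, KRT8, KRT18, KRT19, CDH17 and ERBB2, had none, and neither did the immune, fibroblast and endothelial genes PTPRC, CD3E, COL1A2 and PECAM1. Over all protein-coding genes, 33.4% had an exonic peak in both lists and 42.4% in replicate 1. The lists hold no expression levels, so a gene without a peak may be methylated little, expressed little or not covered by the method, and these cannot be told apart. The marker genes therefore give no check of the cell type.

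Sequences under shared peaks of some members with strong peaks were read from the hg38 genome on the strand of the gene, 5′ to 3′. They are windows or short sites, with GGAC in capitals. The CDS peak of SLC25A36 and the 5′ UTR peak of SLC25A29 were weaker in both replicates than the other shared peak of the gene. Windows that reach 50 nt to either side of the replicate 1 summit are given where the whole window is coding sequence (CDS), except for SLC25A37, whose window is not shown here. Those of SLC25A28 (a mitochondrial iron carrier, chr10:99611083-99611183, minus strand) and SLC25A51 (a carrier of NAD+, chr9:37887991-37888091, minus strand) each held 1 GGAC. The window of SLC25A36 (a pyrimidine nucleotide carrier, chr3:140973831-140973931, plus strand) held none. For summits in or next to untranslated regions (UTRs), only a site of 25 nt around the GGAC nearest to the replicate 1 summit is given, a choice made after the values were seen. These are the 3′ UTR site of SLC25A29 (a carrier of basic amino acids, chr14:100291392-100291416, minus strand), its site in the 5′ UTR (chr14:100306409-100306433, minus strand) and the site after the stop codon of SLC25A36 (chr3:140976494-140976518, plus strand). No GGAC lay within 100 nt of the replicate 1 summits of SLC25A30 and SLC25A43.
SLC25A28 CDS: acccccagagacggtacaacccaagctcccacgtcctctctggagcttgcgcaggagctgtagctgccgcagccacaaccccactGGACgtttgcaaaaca
SLC25A51 CDS: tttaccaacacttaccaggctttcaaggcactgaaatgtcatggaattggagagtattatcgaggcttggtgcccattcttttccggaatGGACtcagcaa
SLC25A36 CDS: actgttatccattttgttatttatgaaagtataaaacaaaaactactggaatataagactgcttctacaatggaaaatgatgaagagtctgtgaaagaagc
SLC25A29 3′ UTR: gaacagtatgGGACcccctcaccag
SLC25A29 5′ UTR: tgccgccgagGGACcagcgcgggtc
SLC25A36 3′ UTR: agattacagtGGACcatgggataca

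Firstly, the members with a peak were counted. An exonic peak was found in 25 of the 48 SLC25A genes in replicate 1, which was 52.1% (95% Wilson confidence interval 38.3% to 65.5%), while 42.4% of all protein-coding genes had one. In replicate 2 the count was 18 genes, or 37.5% (25.2% to 51.6%), beside 34.1% of all protein-coding genes. In both lists 17 members had a peak, or 35.4% (23.4% to 49.6%), beside 33.4%, and in either list 26 members, or 54.2% (40.3% to 67.4%), beside 43.1%. When protein-coding genes were weighted to the exonic length deciles of the members, their shares were 42.8% in replicate 1, 34.1% in replicate 2, 33.4% in both and 43.5% in either. Each of these shares lay inside the interval of the members, and with 48 genes no departure of the family from other protein-coding genes of its length could be seen. The intervals cover counting error only. Of the genes in both lists, 9 remained when a fold enrichment of 5 or more was required, which was 18.8% of members beside 19.3% of protein-coding genes. When summits in exons of more than 1 gene were left out, 14 members had a peak in both lists, or 29.2%, beside 29.8% of protein-coding genes.

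**Figure D1:**
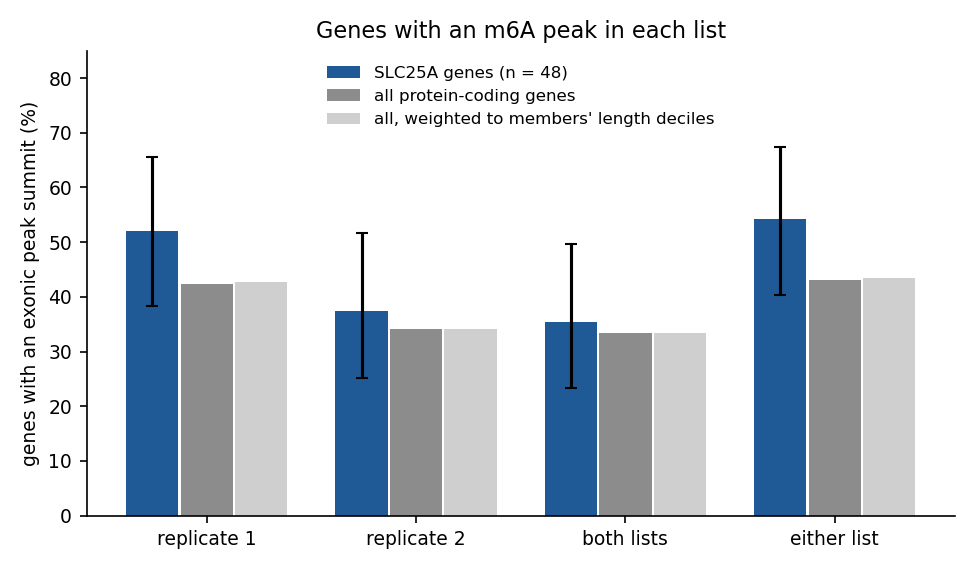
Share of genes with an exonic peak summit in replicate 1, in replicate 2, in both lists and in either list, in percent. Blue bars are the 48 SLC25A genes with 95% Wilson intervals, and grey bars are all protein-coding genes, unweighted and weighted to the members' length deciles. The grey bars lie inside the interval of the blue bar in each category.

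Members were then grouped by the role of the carrier, and the counts of genes with a peak were unequal among the groups. Over all protein-coding genes, 42.4% had a peak in replicate 1 and 33.4% in both lists. The groups hold few genes each, and whether any of them departs from these shares was not tested. Among the carriers of cofactors and pyrimidine nucleotides, peaks in both lists were found in SLC25A17, the peroxisomal member of the family, SLC25A26, which carries S-adenosylmethionine, SLC25A32, a folate and FAD carrier, SLC25A36 and SLC25A51. SLC25A16 and SLC25A33 had a peak in replicate 1 alone, SLC25A42, a coenzyme A carrier, in replicate 2 alone, and SLC25A52 in neither. Both iron carriers, SLC25A28 and SLC25A37 (mitoferrins), had peaks in both lists. So did 3 of the 4 carriers that exchange ATP-Mg for phosphate under control of calcium, SLC25A23, SLC25A24 and SLC25A25, and the exception was SLC25A41. Of 6 other amino acid and carnitine carriers, SLC25A29, SLC25A38, a glycine carrier needed for heme synthesis, and SLC25A44, a carrier of branched-chain amino acids, had peaks in both lists. SLC25A2, SLC25A15 and SLC25A20, which transport ornithine and carnitine esters, had none.

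Carriers of adenine nucleotides, phosphate, carboxylates, aspartate and glutamate were examined next. Of the 4 ADP/ATP carriers, SLC25A4, SLC25A5 and SLC25A31 had no exonic peak, and SLC25A6 had peaks in replicate 1 alone. SLC25A3, the phosphate carrier, had none. SLC25A12, SLC25A13 and SLC25A18, carriers of aspartate and glutamate, had none, and SLC25A22, a glutamate carrier, had peaks in replicate 1 alone. Among the di- and tricarboxylate carriers, SLC25A1, the citrate carrier, and SLC25A10 had none, and SLC25A11, the oxoglutarate carrier, and SLC25A21 had a peak in replicate 1 alone. Of these 13 genes, 4 had a peak in replicate 1, where 42.4% of all protein-coding genes had one, and 0 had one in both lists, where 33.4% did. The groups were pooled after their values were seen. ADP/ATP carrier genes have many near-identical pseudogenes, and whether reads were split among the copies was not tested. With few genes per role, none of these differences between roles was tested.

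The remaining members were mixed. SLC25A30, a relative of the uncoupling proteins, had a peak in both lists, while its relatives SLC25A14 and SLC25A27 had none. SLC25A39, a glutathione carrier, had a peak in replicate 1 alone, and its paralog SLC25A40 had none. SLC25A43 and SLC25A35 had peaks in both lists and SLC25A46, an outer membrane member, in replicate 1 alone. SLC25A34, SLC25A45, SLC25A47, SLC25A48 and SLC25A53 had none by the summit rule. In total 22 members had a peak in neither list.

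Fold enrichment, the deposited ratio of signal over the peak caller's background at the summit, was then compared, and pairs of values are given with replicate 1 first and replicate 2 second. Its median over SLC25A peaks was 5.59 in replicate 1 (quartiles 3.56 and 8.44) and 4.26 in replicate 2 (3.22 and 6.67). Over all protein-coding exonic peaks it was 5.21 (3.63 and 7.65) and 4.72 (3.34 and 6.61). Thus the SLC25A peaks were of ordinary strength as a group, with a median above that of all peaks in 1 list and below it in the other.

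SLC25A29 had the strongest peak of the family. Its fold enrichment was 23.9 and 18.9, a geometric mean of 21.3 that exceeded 99.9% of 10847 pairs of overlapping peaks in protein-coding exons. The gene lies on the minus strand of chromosome 14, and the peak ran from 100291201 to 100293024 in replicate 1 and from 100291213 to 100292938 in replicate 2. The peak was 1824 bp wide in replicate 1, lay wholly in the last exon of 1917 nt, and covered 739 nt of CDS and 1085 nt of 3′ UTR with 16 GGAC motifs. The summits lay 843 and 796 nt after the stop codon. The summit also lay in an exon of lncRNA ENSG00000258504 on the opposite strand, and in replicate 1 of lncRNA ENSG00000259052 on the same strand, so the transcript is not fully certain. A further peak in exon 1, with its summit 74 and 97 nt from the transcript start, reached 8.35 and 5.14.

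SLC25A30 and SLC25A36 followed. The SLC25A30 peak (chromosome 13, 45395495 to 45396043 in replicate 1 and 45395436 to 45395944 in replicate 2) reached 14.2 and 12. Its summits lay 167 and 129 nt after the stop codon in exon 10 of 10, and the peak held 0 GGAC in replicate 1 and 1 in replicate 2. SLC25A36 had peaks at the stop codon and in CDS. The stop codon peak (chromosome 3, 140976250 to 140976656 in replicate 1 and 140976261 to 140976688 in replicate 2) reached 15.4 and 8.08, with summits 48 and 19 nt after the stop codon in exon 7 of 7. The GGAC printed above had its adenine 7 nt after the replicate 1 summit. The CDS peak in exon 6, which is 290 nt long, reached 14.2 in replicate 1 but 2.96 in replicate 2, so that peaks 15.4 and 14.2 strong in the first list were 8.08 and 2.96 strong in the second.

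In both iron carriers the peak with the highest geometric mean lay in the last coding exon. For SLC25A28 (chromosome 10, 99610590 to 99611374 in replicate 1 and 99610944 to 99611395 in replicate 2) fold enrichment was 8.78 and 9.74, with summits at −282 and −269 nt from the stop codon (negative values lie before it) in exon 4 of 4. For SLC25A37 (chromosome 8, 23571307 to 23572139 in replicate 1 and 23571322 to 23572033 in replicate 2) it was 8.16 in each replicate, with summits at −197 and −210 nt, also in exon 4 of 4. The replicate 1 peak of SLC25A37 held 9 GGAC motifs and that of SLC25A28 held 3. A further SLC25A37 peak lay in an exon outside the transcript with the longest CDS, with 8.49 and 3.66.

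SLC25A43, SLC25A51 and SLC25A26 were also among the 8 members with the highest geometric mean. The SLC25A43 peak (chromosome X, 119452922 to 119453307 in replicate 1 and 119452914 to 119453294 in replicate 2) showed values of 7.67 and 9.33, summits 34 and 46 nt after the stop codon, and no GGAC in either replicate. In SLC25A51 (chromosome 9, 37887641 to 37888395 in replicate 1 and 37887634 to 37888389 in replicate 2) the values were 8.44 and 7.12. The peak covered 736 nt of CDS in replicate 1, and the summits were 126 nt apart. SLC25A52 is a near-identical copy of this gene, so the copy is uncertain. At SLC25A26 (chromosome 3, 66380157 to 66380835 in replicate 1 and 66380328 to 66380722 in replicate 2) fold enrichment was 9.49 and 6.23. This summit lay in an exon that only alternative SLC25A26 transcripts use and at the same time in an exon of LRIG1 on the opposite strand. The lists carry no strand, so the peak cannot be assigned to one of the genes.

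**Figure D2:**
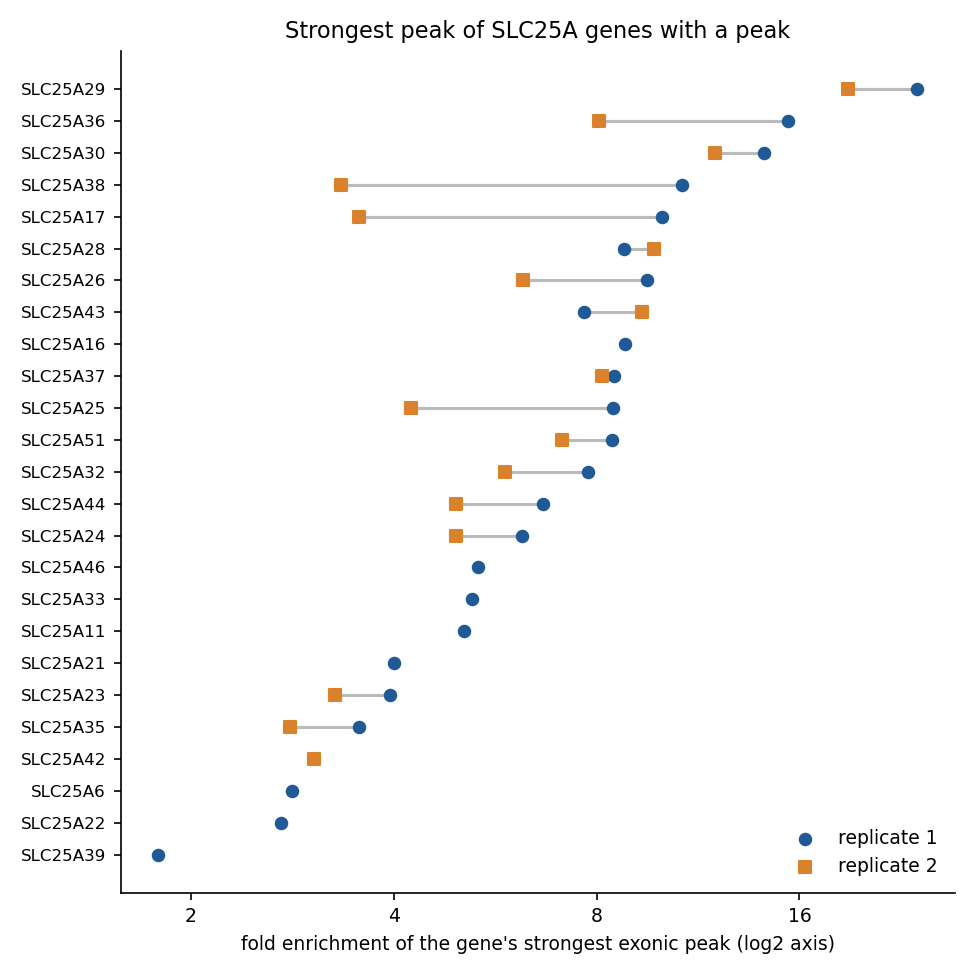
Fold enrichment of the strongest exonic peak of each of 25 SLC25A genes with a peak, on a log2 axis. Blue circles are replicate 1, orange squares are replicate 2, and a grey line joins the replicates of a gene. SLC25A29 is highest in both lists at 23.9 and 18.9, and SLC25A38 and SLC25A17 show the widest gaps between the replicates.

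The shared peaks of the other members with a peak in both lists had lower geometric means, though some exceeded those above in replicate 1. SLC25A38 had a peak in the 5′ UTR with 10.7 and 3.11, and a peak in the 3′ UTR with 10.2 and 3.34. SLC25A17 had 9.99 and 3.55 after its stop codon. Both genes thus fell near the top of the family in replicate 1 and in its lower part in replicate 2. SLC25A32 had 7.77 and 5.86, in an exon it shares with the same-strand gene model ENSG00000285982. SLC25A24 had 6.21 and 4.95. SLC25A35, a poorly characterised member, had 3.55 and 2.81 in exon 1, but its peaks in the lists did not overlap each other.

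SLC25A44, SLC25A25, SLC25A23 and SLC25A6 had 3 or more exonic peaks in a list. SLC25A44 on chromosome 1 had 7 in replicate 1 and 3 in replicate 2. Its shared peaks lay in exon 1 (156194181 to 156194343 in replicate 1, fold enrichment 4.18 and 3.17), in CDS of exon 2 (156199597 to 156200453, 6.66 and 4.26) and after the stop codon (156210270 to 156210668, 5.75 and 4.95). The last of these had summits 77 and 78 nt after the stop codon, a distance of 1 nt between the replicates. Its 4 unshared peaks, between 156199128 and 156212692, ranged from 3.50 to 5.83.

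The calcium-regulated carriers SLC25A25 and SLC25A23 had their reproducible peaks along the 3′ UTR. In SLC25A25 (chromosome 9), 3 shared peaks had summits 269, 846 and 1304 nt after the stop codon in replicate 1 and 250, 916 and 1317 nt in replicate 2. Their fold enrichment was 8.45, 4.86 and 5.43 in replicate 1 and 4.25, 3.06 and 3.42 in replicate 2, so the peak nearest the stop codon was the strongest in both lists. The peaks began at 128107136, 128108108 and 128108659 and ended at 128107984, 128108481 and 128109455 in replicate 1. A further, unshared peak lay from 128098547 to 128098752 in replicate 1 with 7.62, in an exon outside the transcript with the longest CDS. The most distal of the shared peaks also lay in an exon of the antisense lncRNA SLC25A25-AS1. In SLC25A23 (chromosome 19), the shared peaks ran from 6441317 to 6442069 and from 6440115 to 6440752 in replicate 1, with fold enrichment of 3.64 and 3.95, beside 2.92 and 3.27 in replicate 2. Their summits lay 425 and 1478 nt after the stop codon in replicate 1 and 384 and 1737 nt after it in replicate 2. Its 2 unshared peaks, from 6440990 to 6441196 and from 6459403 to 6459652, had 2.21 and 2.51. SLC25A24, the third carrier of this group with peaks, had its single peak 95 and 37 nt after the stop codon.

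SLC25A6 had 3 peaks, all in replicate 1, with values of 2.83, 2.04 and 2.37. They lay on chromosome X from 1386242 to 1386589, from 1389327 to 1389520 and from 1391840 to 1392008. The gene lies in a pseudoautosomal region that the reference holds on chromosomes X and Y, and a replicate 1 peak with a value of 3.83 was listed at the Y copy, which was not counted. The SLC25A6 values are therefore uncertain.

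The members found in 1 list alone spanned a wide range. In replicate 1 the fold enrichment of their strongest peak was 8.81 in SLC25A16, 5.34 in SLC25A46, 5.22 in SLC25A33 and 5.08 in SLC25A11. It was 4.01 in SLC25A21, whose summit also lay in an exon of PAX9 on the opposite strand, 2.72 in SLC25A22 and 1.79 in SLC25A39. SLC25A42 had 3.05 in replicate 2. Over all members, the 25 shared peaks of replicate 1 had a median of 8.35 (range 3.64 to 23.9) and the 23 unshared ones 3.55 (1.79 to 8.81). Their median width was 549 bp and 180 bp in turn. Over all protein-coding exonic peaks of replicate 1 the medians were 6.47 for shared and 3.95 for unshared peaks.

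Peaks were called shared when they overlapped a peak of the other list by at least 1 bp. This held for 52.1% of the 48 SLC25A peaks of replicate 1 (38.3% to 65.5%), beside 60.6% of all protein-coding exonic peaks, and for 92.6% of the 27 peaks of replicate 2 (76.6% to 97.9%), beside 95.9%. The 2 unshared peaks of replicate 2 were those of SLC25A35 and SLC25A42. Replicate 1 thus held nearly all SLC25A peaks of replicate 2 and about as many more.

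Across the 25 pairs of shared SLC25A peaks, log2 fold enrichment had a Pearson's r of 0.601 and a Spearman's rho of 0.403. Over all 10847 protein-coding pairs, r was 0.705 and rho 0.690. These describe peaks of the same 2 libraries, several from the same gene. Replicate 1 had the higher value in 23 of 25 SLC25A pairs (92.0%), beside 80.6% of all pairs, with a median log2 ratio of 0.60 beside 0.44. The SLC25A37 pair, at 8.16 in each list, is among the 23 by a difference smaller than the printed digits. The exceptions, SLC25A28 and SLC25A43, had log2 ratios of −0.15 and −0.28. The highest log2 ratios were 2.26 for the CDS peak of SLC25A36, 1.78 and 1.61 for SLC25A38 and 1.49 for SLC25A17, which stood at percentiles 99.9, 99.0, 98.1 and 96.8 of all pairs. The median distance between paired summits was 23 bp, beside 26 bp over all pairs, and the largest was 259 bp, in SLC25A23. Paired peaks had to overlap, which by itself limits this distance.

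To examine where in the transcript the peaks lay, summits were placed on the transcript with the longest CDS of each gene, and those within 200 nt of the stop codon, before or after it, formed a class of their own. This covered 44 of 48 summits in replicate 1 and 25 of 27 in replicate 2. The stop codon window held 15 summits in replicate 1, or 34.1% (21.9% to 48.9%), beside 24.6% of all protein-coding summits, and 9 in replicate 2, or 36.0% (20.2% to 55.5%), beside 27.3%. The rest of the 3′ UTR held 29.5% (18.2% to 44.2%) beside 17.2%, and 28% (14.3% to 47.6%) beside 18.9%. The 5′ UTR held 11.4% (4.95% to 24%) beside 8.78%, and 16% (6.40% to 34.7%) beside 5.46%.

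CDS outside the stop codon window held fewer SLC25A summits. The share was 25% in replicate 1 (14.6% to 39.4%), beside 49.4% of all protein-coding summits, and 20.0% in replicate 2 (8.86% to 39.1%), beside 48.3%. SLC25A transcripts have a short CDS, with a median of 950 nt beside 1305 nt for all protein-coding genes. Among the 9536 protein-coding genes with a CDS from 822 to 2034 nt, the range of the members, the CDS share was 41.8% in replicate 1 and 39.9% in replicate 2. Their shares in the stop codon window (28.1% and 31.3%) and the rest of the 3′ UTR (20.4% and 22.6%) lay inside the intervals of the members. Their 5′ UTR share lay inside it in replicate 1 (9.70%) and just below it in replicate 2 (6.21%). These genes were matched by the range only, not by the spread of lengths within it. In the members with a peak in both lists, the longest CDS was 1623 nt. Part of the distance of the CDS share to all genes was thus also present in genes of this CDS range, and the remainder was not tested. The summits of a gene are not independent of each other, and most replicate 2 summits are peaks seen in replicate 1 as well.

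**Figure D3:**
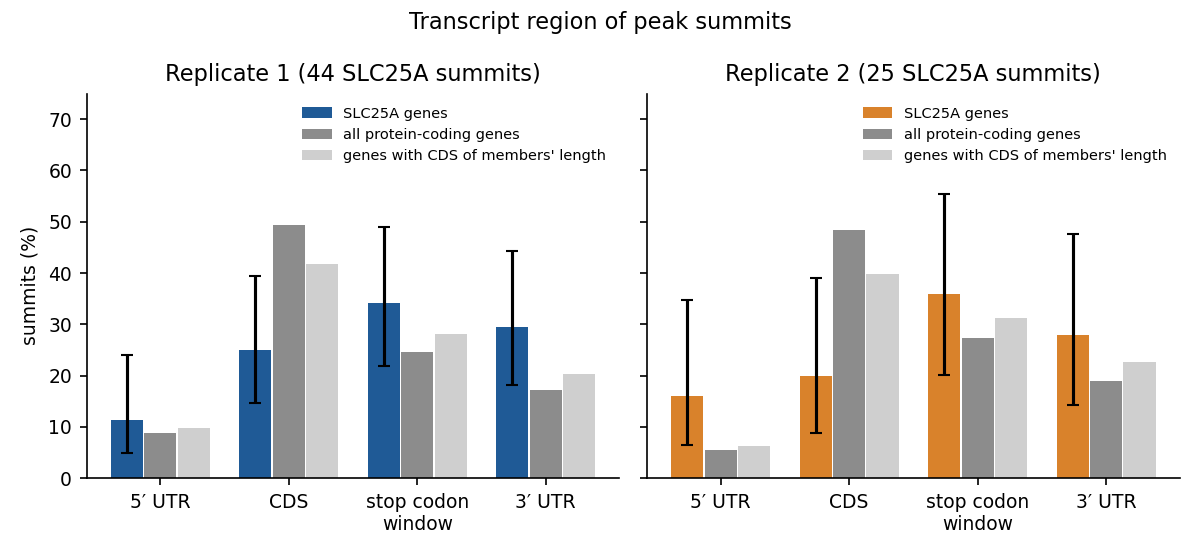
Share of peak summits in the 5′ UTR, in CDS, within 200 nt of the stop codon and in the rest of the 3′ UTR, in percent, for replicate 1 (left) and replicate 2 (right). Coloured bars are SLC25A genes with 95% Wilson intervals, dark grey bars all protein-coding genes and light grey bars genes with a CDS within the range of the members'. The SLC25A bar is lower than both grey bars for CDS and higher for the other regions in each list.

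Most SLC25A summits lay in the last exon. It held 30 of 44 in replicate 1 (68.2%, 53.4% to 80.0%), beside 50.7% of all protein-coding summits and 59.7% in genes within the CDS range of the members. In replicate 2 it held 19 of 25 (76.0%, 56.6% to 88.5%), beside 59.7% and 71.0%. Of these, 18 in each list were shared, and they came from 15 genes. Of 10 summits in first exons in replicate 1, 3 were shared, and they were those of SLC25A29, SLC25A38 and SLC25A44. Internal exons held 4 summits in replicate 1 and 2 in replicate 2, with shared ones in SLC25A36 exon 6 and SLC25A44 exon 2. The latter, at 638 nt, is the longest internal exon of the family, whose median longest internal exon was 174 nt beside 218 nt for all protein-coding genes.

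**Figure D4:**
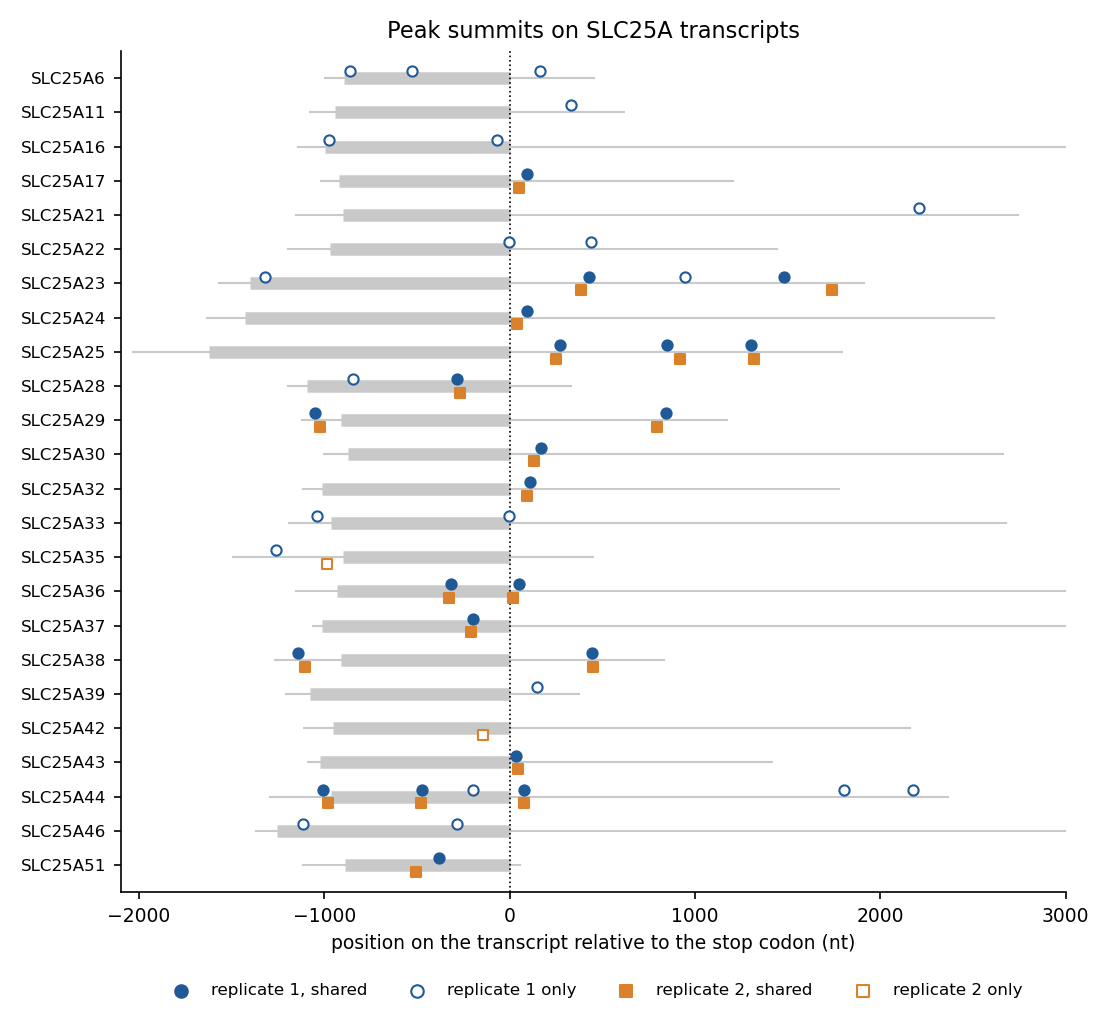
Peak summits on the longest-CDS transcript of SLC25A genes that have one there, by distance from the stop codon in nt. Thick grey bars are CDS and thin lines UTRs, some of which run past the right edge. Circles are replicate 1 and squares replicate 2, filled where the peak was shared, and most filled symbols stand in pairs just before or after the stop codon or along the 3′ UTR.

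Members with and without peaks were then compared in structure. The last exon had a median of 1909 nt (618 to 4736) in the 17 members with a peak in both lists and 1171 nt (453 to 6075) in the 22 with none. The CDS was alike, with medians of 960 and 939 nt, and the 3′ UTR had medians of 1413 and 780 nt. The ranges overlapped widely. SLC25A53, SLC25A3 and SLC25A4 had last exons of 6075, 5000 and 3569 nt without an exonic summit, while SLC25A35 had peaks in both lists with a last exon of 618 nt. Over all protein-coding genes the median last exon was 1898 nt with a peak in both lists and 974 nt with none, so the direction in the family was that of genes in general.

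**Figure D5:**
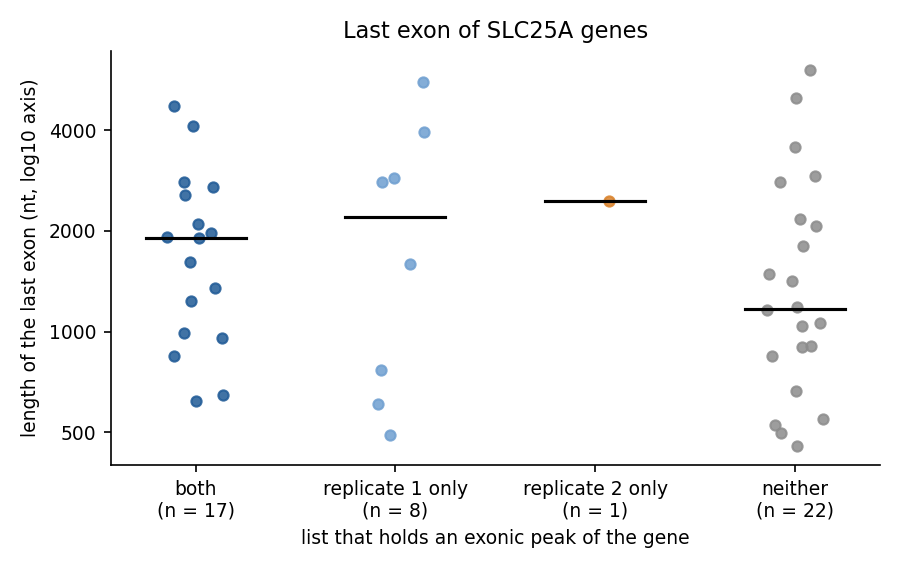
Length of the last exon of each SLC25A gene in nt, on a log10 axis, by the list that holds an exonic peak of the gene. Points are genes and horizontal lines medians, at 1909 nt for a peak in both lists and 1171 nt for neither, with widely overlapping ranges.

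The GGAC core motif was searched in the sense strand up to 50 nt from each summit. It was present at 22 of 48 SLC25A summits in replicate 1 (45.8%, 32.6% to 59.7%), beside 49.8% of all protein-coding exonic summits, and at 15 of 27 in replicate 2 (55.6%, 37.3% to 72.4%), beside 51.8%. Both background shares lay inside the intervals of the family. Within the family, the motif was closest to the summit in SLC25A11, with its adenine 1 nt before the replicate 1 summit, and in SLC25A23 and SLC25A25, 2 nt after it in each. By contrast, SLC25A24 had no GGAC within 100 nt of its summit in either list, like SLC25A30 and SLC25A43. A missing GGAC says only that these letters are not in the window, since m6A is also placed at other forms of the motif.

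SLC25A53 needs a separate account because the summit rule left it out. A peak on chromosome X from 104129936 to 104131142 in replicate 1 and from 104129955 to 104131036 in replicate 2 reached 19.8 and 11.2, which only SLC25A29 exceeded in replicate 1. It overlapped an SLC25A53 exon of 620 nt by 539 and 433 bp, but its summits lay 452 and 385 bp past the end of that exon, in the intron. The SLC25A53 transcript with the longest CDS has 2 exons and 6207 nt, of which the last exon takes 6075 nt. The full 620 nt exon is therefore not part of that transcript. When any overlap with an exon was counted, SLC25A53 joined the members with a peak and 18 had one in both lists, which was 37.5% beside 34.5% of protein-coding genes.

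Finally, genes of the same fold, of the carrier import machinery and of other mitochondrial transporters were examined. Of 5 proteins of the same fold under other symbols, the uncoupling protein gene UCP3 had a peak in both lists, and UCP1, UCP2, MTCH1 and MTCH2 had none. Of 16 genes of the machinery that imports carriers, 8 had a peak in both lists: TIMM22, TIMM29, TIMM8A, TIMM9, TIMM10B, TIMM13, TOMM70 and TOMM5. TIMM8B had one in replicate 1 alone, and the other 7 had none. Of 18 other transporters of the mitochondrial membranes, 6 had a peak in both lists, among them SFXN5, LETM1, SLC8B1, ABCB8 and ABCB10. SFXN3 had one in replicate 1 alone. The 11 with none included the pyruvate carrier genes MPC1 and MPC2 and the porin genes VDAC1, VDAC2 and VDAC3. These counts stand beside the 33.4% of all protein-coding genes with a peak in both lists.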

How the data were processed

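OE-19 cells were profiled by meRIP-seq. Per the labels, cells were fixed with UV and lysed, and fastp, HISAT2 and MACS2 were used. The study's m6A method names no UV step: RNA was extracted with Trizol, fragmented and then incubated with the antibody. For mapping to hg38 the study names TopHat2, and for peaks MACS2 with default settings. Which account holds for these lists is not known. Versions and the use of input as control are not given in the sources used here. The authors deposited 1 peak list per m6A IP sample, with fold enrichment (a ratio over the caller's background), −log10 of p and q, and the summit offset. The q values reached 0.0491 (replicate 1) and 0.0497 (replicate 2). Peaks on hg38 chromosome names lay within the chromosome ends, while 55 peaks of replicate 1 and 110 of replicate 2 lay on other sequence names.

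Genes came from GENCODE version 44. Copies in the pseudoautosomal regions of chromosome Y were left out. A summit was given to every protein-coding gene with an exon there, and 6 of 48 SLC25A summits in replicate 1 and 5 of 27 in replicate 2 lay in exons of further genes. Coordinates are 1-based. Paired peaks were each other's largest overlap. The transcript used for regions was that with the longest CDS. Members are described by shares with 95% Wilson intervals and medians, beside the same over all protein-coding genes, with no test. The members, roles and gene lists were chosen with earlier results of these data known. The comparison with genes within the CDS range of the members was added after the region shares were seen. Coordinates are given for the 8 members whose shared peak had the highest geometric mean of the replicates and for members with 3 or more peaks in a list. Alternatives were q of 0.01 or less or of 1e-05 or less, fold enrichment of 5 or more, other rules for a gene's peak and for sharing, other stop codon and motif windows, shared or best peaks only, and each replicate left out. Results of some single genes are not reported here, though the genes are in the counts. Region, overlap and interval code was tested on made-up data. Python 3.11.15, numpy 2.4.6, scipy 1.17.1, pysam 0.24.0, biopython 1.88 and matplotlib 3.10.9 were used.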

Additional observations from a re-analysis of the deposited data

Results flagged for a closer look

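Peaks with the summit in an intron of a SLC25A gene were left out of the counts, and there was no control list to set them against. Replicate 1 had 6 intronic peaks in 5 members and replicate 2 had 9 in 5 members. They are listed because each count exceeded 3, a fixed limit for a closer look. The share of genes in general with intronic peaks is not given here, so the counts show no excess in the family. In each list 3 of them were shared with the other list.

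The strongest was the peak at SLC25A53 described above, with 19.8 and 11.2 (fold enrichment, replicate 1 first). The other shared ones lay in SLC25A36 (6.72 and 4.99) and SLC25A44 (4.99 and 3.55). In replicate 2, 5 of the 9 peaks lay in SLC25A26 on chromosome 3 between 66183376 and 66199723, with fold enrichment from 7.02 to 10.3, and none of them was found in replicate 1. The unshared peaks of replicate 1 lay in SLC25A51 (7.98 and 3.65) and SLC25A24 (4.98), and the remaining one of replicate 2 in SLC25A21 (4.69). What gave rise to these peaks was not tested.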

How the results depend on the processing

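Of 92 values under alternatives, 75 moved by less than the limit set for them, which was 1.5 times for counts, the 95% interval for shares and the spread between the replicates for medians. With a fold enrichment of 5 or more, 9 members had a peak in replicate 2 and 9 in both lists. This limit was applied to both lists before sharing was counted, and 35.7% of replicate 1 and 100% of replicate 2 peaks were then shared. A replicate 1 peak whose partner in replicate 2 was below 5 thus counted as unshared, so 35.7% does not mean that stronger peaks recurred less. At q of 1e-05 or less, 100% of replicate 2 peaks were shared. Median fold enrichment was 8.35 for shared peaks of replicate 1, and 7.67 and 5.41 in replicates 1 and 2 for the best peak of each gene. A stop codon window of 100 nt gave 20.5% in replicate 1 and one of 400 nt gave 56.0% in replicate 2, where it left 8% in the rest of CDS. The 3′ UTR share in replicate 2 was 11.1% at a fold enrichment of 5 or more. GGAC was present at 25% and 33.3% of summits within 25 nt and at 66.7% and 74.1% within 100 nt, in replicates 1 and 2, and at 60.0% of shared replicate 1 summits. The window size itself sets these shares. Without replicate 1, 18 members had a peak, and without replicate 2, 25. No paired analysis was possible because only the m6A IP samples had lists and no test between groups was made. The lists hold no read numbers, so depth could not be weighed.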

Other observations

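The paralogous iron carriers SLC25A28 and SLC25A37 both had the peak with their highest geometric mean in CDS of exon 4, a pair compared after the values were seen. Their coding sequences were 69.7% identical over 1005 aligned nt. On this alignment, the summit of SLC25A28 fell at −88 nt from that of SLC25A37 in replicate 1 and at −62 nt in replicate 2 (before it in both). The summits of each gene in the replicates were 13 bp apart, so the offset between the paralogs was larger than the distance between replicates. Among the other paralog pairs, SLC25A36 had peaks in both lists, while SLC25A33 had peaks only in the first list, the strongest at 5.22 next to its stop codon.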
